A study of Drosophila melanogaster with 17 samples.

Results

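The 28 loci described here carry gene symbols that begin with eIF, the prefix of the eukaryotic translation initiation factors, and they were taken by that symbol alone from 14095 loci counted in adult Drosophila melanogaster tissues. They comprise 5 subunits of eIF3 (eIF3-S10, eIF3-S9, eIF3-S8, eIF-3p66 and eIF-3p40), 2 subunits of eIF2, all 5 subunits of eIF2B, the cap-binding and helicase factors eIF-4E, eIF4G, eIF4G2, eIF-4a and eIF-4B, and 5 further eIF4E paralogues. The remaining 6 are eIF-1A, eIF5, eIF5B, eIF6, eIF-5A and eIF4AIII. Each symbol occurred on 1 row.

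Initiation begins when the small ribosomal subunit, loaded with eIF3, eIF1A, eIF5 and the complex of eIF2, GTP and initiator methionyl-tRNA, is brought to an mRNA by the cap-binding protein eIF4E, the scaffold eIF4G and the helicase eIF4A. After start-codon recognition eIF2 leaves with GDP, and the exchange factor eIF2B reloads it with GTP, a step that is blocked when kinases such as PERK and GCN2 phosphorylate eIF2alpha. eIF5B joins the large subunit, eIF6 keeps that subunit from joining early, and eIF-5A, named for initiation, acts mainly while the chain is extended. The fat body is the fly's counterpart of liver and adipose tissue and secretes yolk and immune proteins, and the midgut is the digestive epithelium.

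Poly-A RNA was sequenced from dissected fat bodies, midguts and whole guts in 17 libraries of 8 groups. In the fat body these were 3 old libraries (50 days), 2 libraries with RNA interference against lamin (Lam-RNAi, 5 days) and 2 young libraries (5 days). In the midgut they were 2 old (50 days), 2 Lam-RNAi (5 days) and 2 young (5 days) libraries, and in the whole gut 2 old (40 days) and 2 young (5 days) libraries. The series' design text calls the young libraries wild-type controls and the libraries of a group biological replicates. Old and young libraries have no treatment listed, and the labels give no strain, sex, Gal4 driver, tissue of interference or number of flies per library, nor a control hairpin. Loss of lamin and any effect of the driver, the hairpin or the strain therefore cannot be told apart in the Lam-RNAi comparisons. Nothing says whether flies were reared apart, so the p-values measure the spread between these libraries.

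Libraries held 31637135 to 78289614 counts, of which the 28 factors took 0.400% to 0.809%. Levels are given as normalised CPM, counts brought to a common library total by the trimmed-mean scaling TMM within each of the 3 tissue series, so that levels of different tissues are not on 1 scale unless stated. A gene is said to have risen or fallen where edgeR's quasi-likelihood test with Benjamini-Hochberg adjustment over all genes tested gave an adjusted p below 0.05. Lam, the targeted B-type lamin gene, was at 15.5 and 16.1 CPM of total counts in Lam-RNAi fat bodies, against 38.4 and 39.0 in young fat bodies, and fell by 1.12 on the log2 scale (adjusted p = 0.00145). In the midgut Lam was at 32.0 and 30.4 CPM of total counts in Lam-RNAi and at 28.9 and 32.1 in young libraries (log2 fold change -0.11, 95% interval -0.25 to 0.03, adjusted p = 0.173), so no lower Lam mRNA was detected in the Lam-RNAi midguts. All marker sums are likewise in CPM of total counts. All 6 fat body markers had counts in every group and summed to 8036 to 22246 CPM in fat bodies and 171 to 982 CPM in midguts, while the 8 midgut markers summed to 71.4 to 959 CPM in fat bodies, with deltaTry at 0 in the young ones, and to 34338 to 44056 CPM in midguts. The third old fat body library lay between the other two old libraries in 70.4% of the 10866 genes tested and in 18 of 26 factors, against 13.7% and 16.0% of genes for the first and second library, so calls lost without it are named or counted.

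Per kilobase of exon, the factors spanned a wide range of levels. In young fat bodies the highest was eIF-5A at 1450 normalised CPM per kilobase, ahead of the helicase eIF-4a at 634, eIF3-S9 at 234 and eIF-3p40 at 202. The lowest of the factors outside the eIF4E paralogues were eIF2B-delta at 11.2 and eIF4G2 at 6.1 normalised CPM per kilobase. eIF-5A held rank 1 and eIF-4a rank 2 in all 8 groups. The span of eIF6 lies wholly within ytr on the same strand, and the release 6 annotation gives the pair 0.0% of its exonic bases in common.

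All 5 eIF3 members and 3 of the 5 eIF2B members fell in Lam-RNAi fat bodies against young ones. None of these 10 genes fell in Lam-RNAi midguts, where 3 eIF3 subunits and 1 eIF2B subunit rose. In the fat body 8 factors fell and 2 rose among 26 tested (10 fell and 1 rose when scaled by total counts alone, which put the median log2 fold change of all genes at -0.18). That is 38.5% of the factors against 35.7% of all 10866 genes called in either direction, with 30.8% of the factors against 17.1% of all genes falling and 7.7% of the factors against 18.5% of all genes rising. In bulk tissue, fewer cells of a type and less RNA per cell cannot be told apart.

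eIF3 is the large scaffold on the small subunit that other initiation factors dock to. Its subunit h, eIF-3p40 (2L, 5051192 to 5053209, minus strand), had 182 and 177 normalised CPM in Lam-RNAi fat bodies, against 299 and 305 in young fat bodies. It had 197 and 214 in Lam-RNAi midguts, against 150 and 147 in young midguts. The groups did not overlap in either tissue, and Lam-RNAi was the lower one in the fat body and the higher one in the midgut. How many of all genes show no overlap of groups was not counted, here or below. eIF-3p40 fell by 0.75 on the log2 scale in the fat body (95% interval -1.01 to -0.49, adjusted p = 0.0027, 1.68-fold lower) and rose by 0.47 in the midgut (0.32 to 0.62, adjusted p = 9.06e-05, 1.38-fold higher). The span of eIF-3p40 overlaps CG14040 on the other strand by 365 bases. In the release 6 annotation 16.8% of its exonic bases are shared with senju.

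eIF3-S10 (3R, 255638 to 259652, minus strand) encodes eIF3a, the largest core subunit. It had 289 and 296 normalised CPM in Lam-RNAi fat bodies, against 463 and 421 in young fat bodies, and 244 and 254 in Lam-RNAi midguts, against 235 and 231 in young midguts. It fell by 0.60 on the log2 scale in the fat body (-0.81 to -0.38, adjusted p = 0.00325), while its midgut difference of 0.10 did not pass the test (-0.05 to 0.24, adjusted p = 0.229). The fat body fall of eIF3-S10 was thus larger than the spread of either pair of libraries.

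eIF3-S9 (2R, 13423717 to 13426647, plus strand) encodes eIF3b, a core subunit with an RNA-binding domain. It had 470 and 429 normalised CPM in Lam-RNAi fat bodies, against 633 and 622 in young fat bodies, and 470 and 498 in Lam-RNAi midguts, against 371 and 376 in young midguts. It fell by 0.48 in the fat body (adjusted p = 0.014) and rose by 0.37 in the midgut (adjusted p = 0.000796) on the log2 scale. Its groups did not overlap in either tissue.

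eIF3-S8 (2R, 13553182 to 13556749, plus strand) encodes the core subunit eIF3c. It had 472 and 468 normalised CPM in Lam-RNAi fat bodies, against 602 and 584 in young fat bodies, and 365 and 388 in Lam-RNAi midguts, against 278 and 283 in young midguts. eIF3-S8 fell by 0.33 on the log2 scale in the fat body (adjusted p = 0.0235) and rose by 0.42 in the midgut (adjusted p = 0.000232), with no overlap of the groups. eIF-3p66 (3R, 19505766 to 19508039, plus strand), which encodes eIF3d, a subunit that can bind the cap in human cells, had 179 and 171 normalised CPM in Lam-RNAi fat bodies, against 228 and 222 in young fat bodies. It fell by 0.36 there (adjusted p = 0.0243), and its midgut levels of 218 and 235 in Lam-RNAi and 214 and 215 in young libraries did not differ past the threshold (0.08, -0.07 to 0.23).

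**Figure D1:**
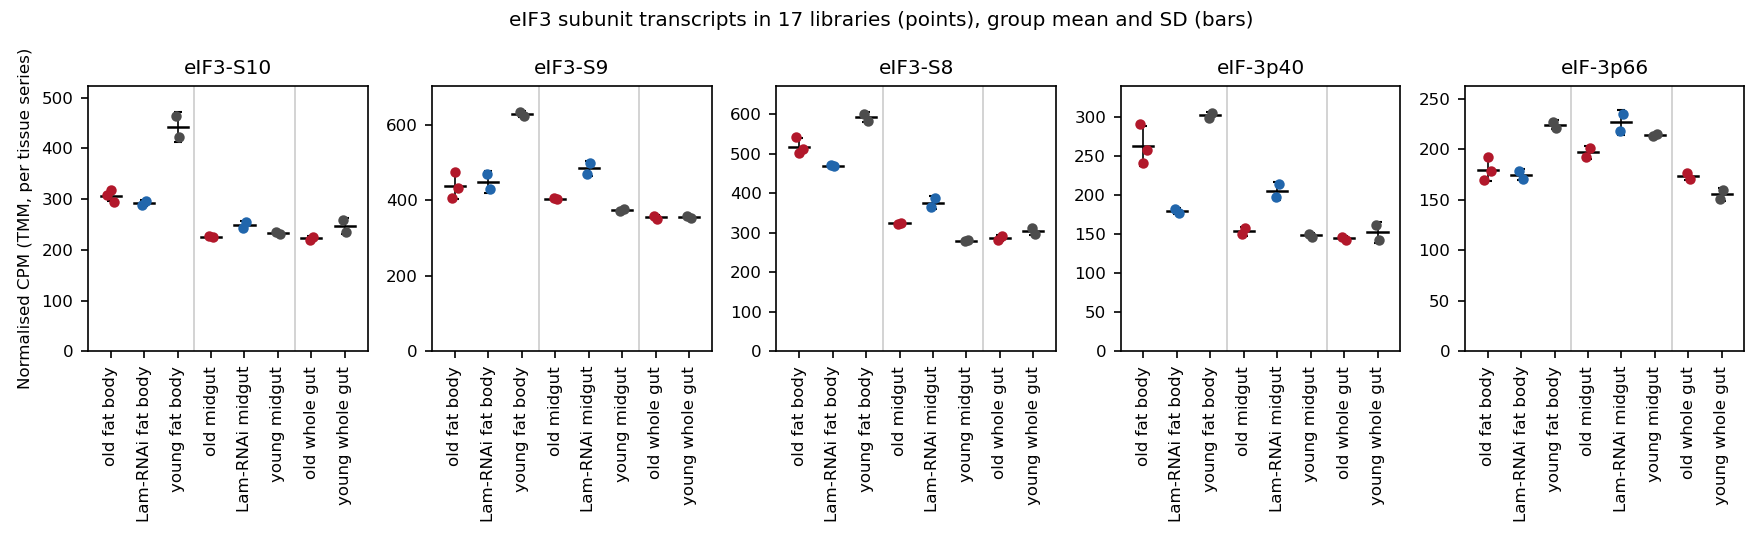
Normalised CPM of the 5 eIF3 subunits (vertical axis) in each library of the 8 groups (horizontal axis, old, Lam-RNAi and young within each tissue), with points for libraries and bars for the mean and SD. In the fat body the Lam-RNAi points of every subunit lie below the young ones, for example 182 and 177 against 299 and 305 for eIF-3p40, and in the midgut they lie above them.

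Summed over the 5 subunits, eIF3 was at 1592 and 1541 normalised CPM in Lam-RNAi fat bodies, against 2225 and 2153 in young fat bodies, and at 1494 and 1589 in Lam-RNAi midguts, against 1247 and 1252 in young midguts. The median log2 fold change of the 5 subunits was -0.48 in the fat body and 0.37 in the midgut, beside a median of -0.01 over all genes tested in each tissue. The 2 tissue comparisons use separate libraries. When the Lam-RNAi effect was compared directly between tissues, by the interaction term of a fit to all 17 libraries, all 5 eIF3 subunits had a lower log2 effect in the fat body than in the midgut. The differences, fat body minus midgut, were -1.26 for eIF-3p40 (-1.55 to -0.98, adjusted p = 5.67e-06), -0.90 for eIF3-S9, -0.80 for eIF3-S8, -0.74 for eIF3-S10 and -0.49 for eIF-3p66. They passed in all 15 alternative analyses tried.

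eIF2B is the exchange factor for eIF2, with a regulatory core of alpha, beta and delta and a catalytic pair of gamma and epsilon. The catalytic subunit eIF2B-epsilon (X, 1814198 to 1816917, minus strand) had 23.8 and 22.9 normalised CPM in Lam-RNAi fat bodies, against 42.8 and 41.5 in young fat bodies. Both Lam-RNAi libraries lay well below both young ones, and eIF2B-epsilon fell by 0.85 on the log2 scale (-1.04 to -0.66, adjusted p = 0.000498, 1.8-fold lower). In midguts it had 22.3 and 22.2 in Lam-RNAi and 20.7 and 22.0 in young libraries, a difference of 0.06 that did not pass the test (-0.09 to 0.21, adjusted p = 0.497). The span of eIF2B-epsilon overlaps mip130 on the other strand by 154 bases, and 6.25% of its exonic bases are shared with mip130.

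The regulatory subunit eIF2B-beta had 24.0 and 22.1 normalised CPM in Lam-RNAi fat bodies, against 34.1 and 32.8 in young fat bodies, and fell by 0.54 (adjusted p = 0.018). The catalytic partner eIF2B-gamma had 26.4 and 27.7 in Lam-RNAi fat bodies, against 39.6 and 36.9 in young fat bodies, and fell by 0.50 (adjusted p = 0.0208). eIF2B-alpha (-0.31, -0.56 to -0.07, adjusted p = 0.0536) and eIF2B-delta (-0.24, -0.52 to 0.03, adjusted p = 0.147) had lower means in Lam-RNAi without passing. In the midgut the only eIF2B subunit to pass was eIF2B-alpha, a regulatory subunit, at 20.6 and 22.4 in Lam-RNAi, against 17.1 and 18.0 in young libraries (0.30, adjusted p = 0.00877). The eIF2B sum was 116 and 113 normalised CPM in Lam-RNAi fat bodies, against 166 and 162 in young fat bodies, and 124 in each Lam-RNAi midgut, against 113 and 119 in young midguts. In the interaction test 4 of the 5 eIF2B subunits had a lower Lam-RNAi effect in the fat body than in the midgut: eIF2B-epsilon by -0.96 (adjusted p = 4.31e-06), eIF2B-gamma by -0.67, eIF2B-alpha by -0.66 and eIF2B-beta by -0.62, each also passing in all 15 alternatives, whereas eIF2B-delta did not pass (-0.29, adjusted p = 0.0751).

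**Figure D2:**
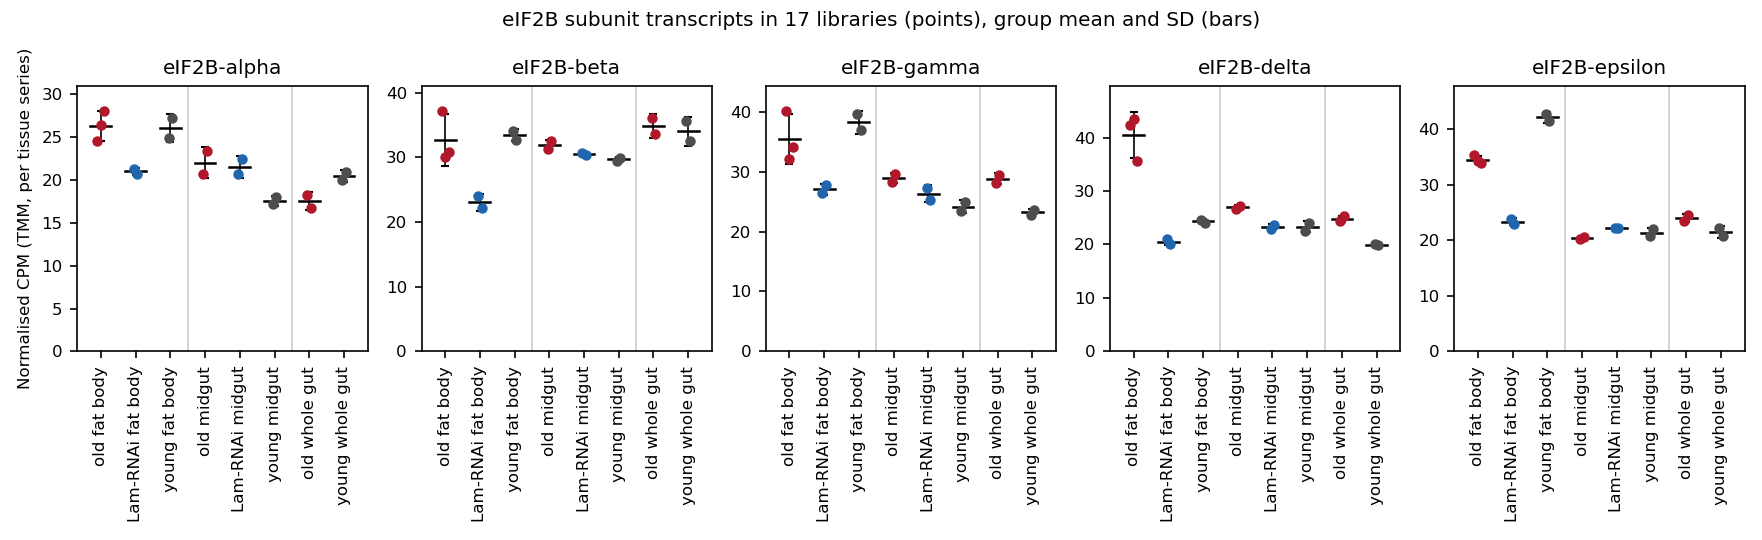
Normalised CPM of the 5 eIF2B subunits (vertical axis) in each library of the 8 groups (horizontal axis, old, Lam-RNAi and young within each tissue), with points for libraries and bars for the mean and SD. eIF2B-epsilon is lowest in the fat body at Lam-RNAi (23.8 and 22.9), and eIF2B-delta is highest in old fat bodies (42.4, 43.4 and 35.6).

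eIF2 itself, the carrier of the initiator tRNA, differed less. eIF-2alpha, the subunit that is phosphorylated under stress, had 95.9 and 89.2 normalised CPM in Lam-RNAi fat bodies, against 97.0 and 95.5 in young fat bodies, and these overlapped. In midguts eIF-2alpha had 97.0 and 97.4 in Lam-RNAi, against 79.4 and 80.8 in young libraries, and rose by 0.28 (adjusted p = 0.00221). In the release 6 annotation eIF-2alpha shares 12.6% of its exonic bases with rngo, while no counted locus overlaps it. eIF-2beta fell in the midgut by 0.23 (adjusted p = 0.0106) at 145 and 136 in Lam-RNAi, against 165 in each young library.

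Among the cap-binding factors, eIF-4E (3L, 9392715 to 9395565, minus strand) had 221 and 215 normalised CPM in Lam-RNAi fat bodies, against 163 and 169 in young fat bodies. It had 175 and 168 in Lam-RNAi midguts, against 189 and 206 in young midguts. eIF-4E rose by 0.40 in the fat body (0.16 to 0.64, adjusted p = 0.0225) and fell by 0.20 in the midgut (adjusted p = 0.0296), and the interaction was 0.55 (0.29 to 0.82, adjusted p = 0.00227). Scaled by total counts alone eIF-4E was at 0.22 in the fat body and -0.06 in the midgut, and passed in neither. With a replicate block it passed in neither tissue. The helicase eIF-4a had 1700 and 1636 in Lam-RNAi fat bodies, against 1553 and 1590 in young fat bodies (0.09, adjusted p = 0.506), and 1469 and 1588 in Lam-RNAi midguts, against 1193 and 1192 in young midguts, where it rose by 0.36 (adjusted p = 0.00517). The scaffold eIF4G did not pass in either tissue, at 769 and 765 in Lam-RNAi and 770 and 797 in young fat bodies, and at 660 and 571 in Lam-RNAi and 643 and 707 in young midguts.

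In the midgut 7 factors rose and 4 fell among 24 tested (11 rose and none fell when scaled by total counts alone, which put the median of all genes at 0.13). That is 45.8% of the factors against 55.4% of all 10220 genes called in either direction, with 29.2% of the factors against 25.5% of all genes rising and 16.7% of the factors against 29.9% of all genes falling. Beside those described, eIF-1A, which helps the small subunit scan, rose by 0.23 (251 and 246 in Lam-RNAi, 207 and 217 in young), eIF5, the GTPase-activating protein of eIF2, fell by 0.33 (166 and 147 in Lam-RNAi, 195 and 199 in young), and eIF-4B, a helper of the helicase, fell by 0.23 (174 and 144 in Lam-RNAi, 179 and 192 in young). In the release 6 annotation eIF5 shares 80.8% of its exonic bases with CG46312, while no counted locus overlaps it in the files. The span of eIF-1A overlaps CG7142 on the other strand by 1351 bases, and 1.63% of its exonic bases are shared, with CG14312. eIF-5A did not pass in either tissue, with 1356 and 1312 normalised CPM in Lam-RNAi and 1168 and 1172 in young fat bodies (0.19, adjusted p = 0.122), and with 734 and 729 in Lam-RNAi and 708 and 772 in young midguts (-0.02).

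**Figure D3:**
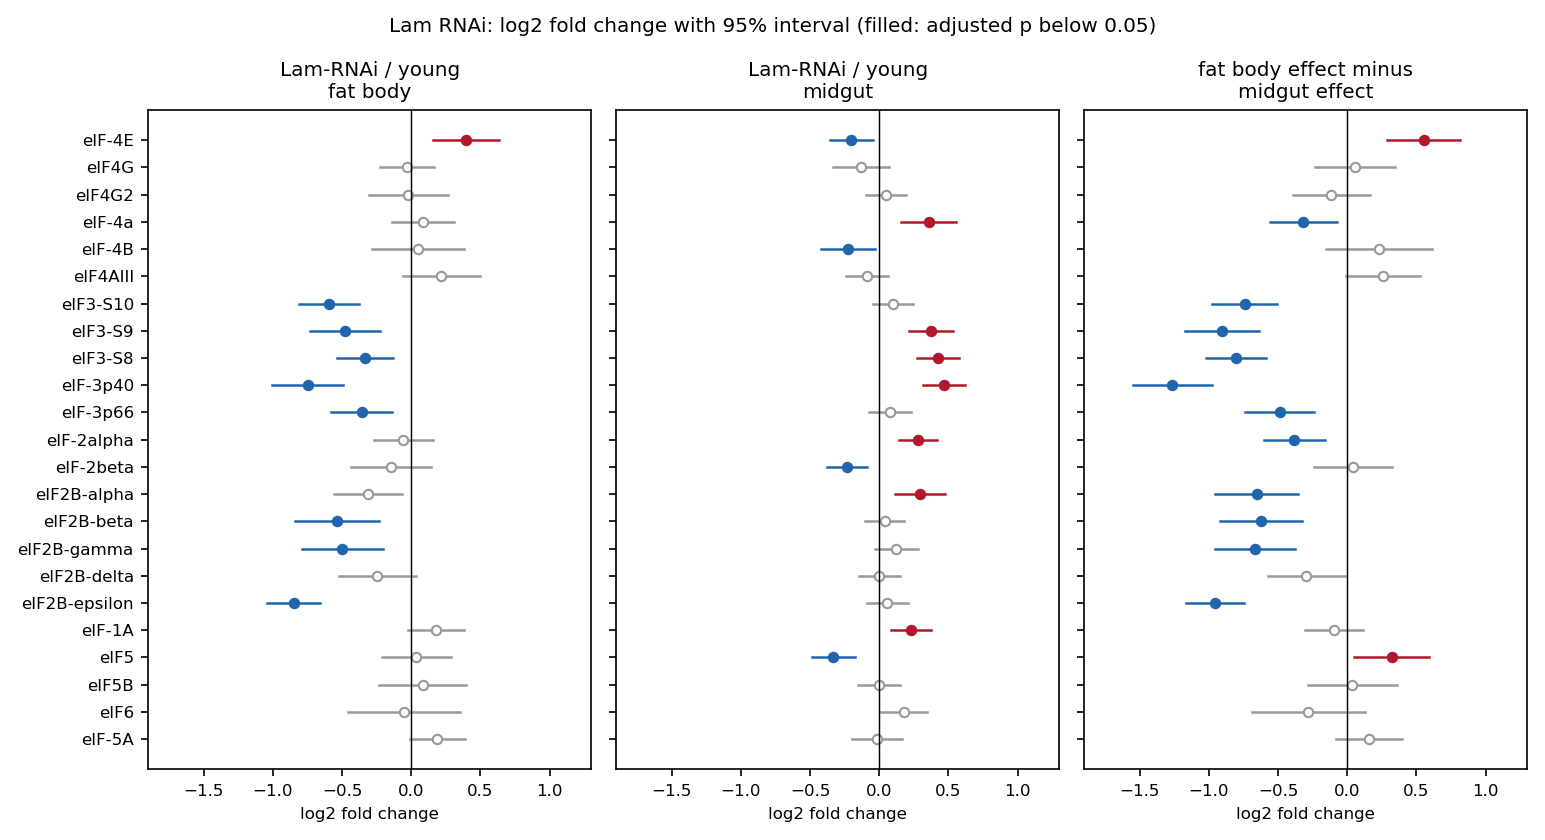
Log2 fold change with its 95% interval (horizontal axis) for each of the 23 factors outside the eIF4E paralogues (vertical axis), for Lam-RNAi against young fat body, Lam-RNAi against young midgut, and the difference of the 2 effects, fat body minus midgut. Filled points passed at an adjusted p below 0.05, red higher and blue lower. The 5 eIF3 subunits lie left of 0 in the fat body and right of it in the midgut, and eIF-4E the other way round.

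Across both tissues the interaction test called 13 of 26 factors, 11 with a lower and 2 with a higher effect in the fat body, that is 50.0% against 46.7% of all 11128 genes, with 42.3% of the factors against 22.5% of all genes on the lower side. Scaled by total counts alone the split was 15 lower and none higher, with the median of all genes at -0.29, and with DESeq2's size factors 9 lower and 4 higher, with that median at 0.16. The 2 higher ones were eIF-4E and eIF5 (0.32, adjusted p = 0.0495), and eIF5 passed in 6 of 15 alternatives only, 1 of 8 that left out a library among them. Calls of eIF-2alpha (-0.38, adjusted p = 0.00761) and eIF-4a (-0.32, adjusted p = 0.0329) also passed, the last of these in 2 of 15 alternatives only. Neither eIF-2alpha nor eIF-4a was among the 9 lower calls with DESeq2's size factors or by DESeq2's own test.

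A chosen list of 8 eIF3 loci whose symbols do not begin with eIF, which need not be complete, was looked at beside these. Of the 8 listed loci 7 were tested, and in Lam-RNAi fat bodies 3 fell: Tango7 (eIF3m) by 0.40, CG5642 (eIF3l) by 0.34 and CG9769 (eIF3f1) by 0.32 on the log2 scale. In Lam-RNAi midguts 6 rose: Int6 (eIF3e) by 0.61, Trip1 (eIF3i) by 0.57, Tango7 by 0.51, CG9769 by 0.43, CG5642 by 0.42 and CG10306 (eIF3k) by 0.19. The interaction passed for 5 of the 7, at -0.97 for Tango7, -0.81 for CG5642 and for Trip1, -0.79 for CG9769 and -0.71 for Int6. Beside these counts, 17.1% of all genes fell in Lam-RNAi fat bodies and 25.5% rose in Lam-RNAi midguts. The interaction was called for 46.7% of all genes, 22.5% on the lower side. CG10306, at 0.40 in the fat body (-0.24 to 1.04, adjusted p = 0.286), and Adam (eIF3j) did not pass the interaction test.

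For the list counts that follow, 18.5% of all genes tested rose and 17.1% fell in Lam-RNAi fat bodies. In Lam-RNAi midguts 25.5% of all genes rose and 29.9% fell. Over all 16 listed initiation factors without the eIF symbol, of which 15 were tested, 1 rose and 4 fell in Lam-RNAi fat bodies, and 7 rose and 2 fell in Lam-RNAi midguts. pix (ABCE1), which recycles ribosomes, fell by 0.35 in the fat body and rose by 0.39 in the midgut. bel (DDX3), a helicase, rose by 0.62 in the fat body, and CG5941 (MCTS1), a reinitiation factor, fell by 0.54 in the midgut. Of 14 regulators 2 rose and 3 fell in the fat body and 4 rose and 2 fell in the midgut. CG10990 (Pdcd4), an inhibitor of eIF4A, rose in both, by 1.27 in the fat body (adjusted p = 0.000179) and by 1.69 in the midgut. The eIF2alpha kinases PEK (PERK) and Gcn2 fell in the fat body, by 0.84 and 0.49, as did their downstream transcription factor crc (ATF4), by 0.35. In the midgut the cap-binding competitor 4EHP fell by 0.48, and the eIF4E kinase Lk6 and the mRNA-binding protein larp rose by 0.59 and 0.67. Of 8 elongation and termination factors 3 rose and none fell in the fat body, namely Ef1beta (0.76), eEF1delta (0.68) and Ef1alpha100E (0.35), and 2 rose and none fell in the midgut, namely Ef1beta (0.63) and Ef1gamma (0.48). With a replicate block the fat body calls of PEK, Gcn2, crc, pix, bel, Ef1alpha100E, Tango7, CG5642 and CG9769 were lost. Of these only bel passed in any fit that left out a Lam-RNAi or young fat body library. All kept their sign. CG10990, Ef1beta and eEF1delta passed in every alternative.

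Markers of other cells moved with the Lam-RNAi contrast. In fat bodies the 6 fat body markers summed to 21822 to 22246 CPM in Lam-RNAi and 8036 to 8981 CPM in young libraries, the 5 oenocyte markers to 42383 to 45016 CPM in Lam-RNAi and 104745 to 106163 CPM in young libraries, and the 10 muscle markers to 5074 to 5357 CPM in Lam-RNAi and 9065 to 9095 CPM in young libraries, with every one of these markers detected. Of the fat body markers 2 rose and 4 did not pass, and of the oenocyte markers 3 fell and 2 did not pass. Of the muscle markers 3 rose, 3 fell and 4 did not pass. The 8 midgut markers summed to 225 to 258 CPM in Lam-RNAi and 71.4 to 72.3 CPM in young fat bodies, and 5 of them rose. The 7 hemocyte markers summed to 1340 to 1644 CPM in Lam-RNAi and 839 to 874 CPM in young fat bodies, and 3 rose. The 13 ovary and eggshell markers summed to 202 to 222 CPM in Lam-RNAi and 74.1 to 74.4 CPM in young fat bodies, with Cp19 and Cp36 at 0 in Lam-RNAi and Vm26Aa, Vm26Ab, Cp19, Cp36 and Cp38 at 0 in young libraries. In midguts the oenocyte markers summed to 413 to 438 CPM in Lam-RNAi and 2806 to 3553 CPM in young libraries, the muscle markers to 2121 to 2258 CPM in Lam-RNAi, with fln at 0, and 4118 to 4453 CPM in young libraries, and the fat body markers to 171 to 206 CPM in Lam-RNAi and 757 to 982 CPM in young libraries. The 6 intestinal progenitor markers, all detected, summed to 48.7 to 53.7 CPM in Lam-RNAi and 36.1 to 40.5 CPM in young midguts. Of these 2 rose, 2 fell and 2 did not pass, with a median log2 fold change of -0.04. The hemocyte markers summed to 240 to 262 CPM in Lam-RNAi and 304 to 363 CPM in young midguts, and 6 of the 7 fell. The 5 trachea markers summed to 29.6 to 30.1 CPM in Lam-RNAi and 70.7 to 89.4 CPM in young midguts, and all 5 fell. The part of these cell types in the factor results was not tested.

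With fat body libraries left out one at a time, eIF-3p40, eIF3-S10 and eIF2B-epsilon kept passing. Of the other falls in the fat body, eIF3-S8, eIF-3p66, eIF2B-beta and eIF2B-gamma, and the rise of eIF-4E, passed in none of the 4 analyses that left out a Lam-RNAi or young library, and eIF3-S9 in 1 of 4, with the sign unchanged in each. These analyses called 3 or 4 factors in place of 10. In the midgut the calls of eIF-3p40, eIF3-S9, eIF3-S8, eIF-4a, eIF-2alpha and eIF5 passed without any 1 library, and without the second Lam-RNAi library 7 factors were called in place of 11, eIF-4B, eIF-4E, eIF-2beta and eIF2B-alpha no longer among them.

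eIF2B-delta and eIF-2beta rose and eIF3-S10 and eIF3-S9 fell in old fat bodies, while in old midguts the called factors all rose by small amounts. In the fat body 6 factors rose and 5 fell among 26 tested (7 rose and 3 fell when scaled by total counts alone, with the median of all genes at 0.11), that is 42.3% against 38.1% of all genes, with 23.1% of the factors against 19.1% of all genes rising and 19.2% of the factors against 19% of all genes falling. These shares lie near those of all genes. The age and Lam-RNAi comparisons share the young libraries, so their values are given side by side without a measure of agreement.

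eIF2B-delta (2R, 19274015 to 19276575, plus strand), a regulatory subunit, had 42.4, 43.4 and 35.6 normalised CPM in old fat bodies, against 24.7 and 23.9 in young fat bodies. All 3 old libraries lay above both young ones, and eIF2B-delta rose by 0.74 on the log2 scale (0.48 to 0.99, adjusted p = 0.00283, 1.66-fold higher). It passed in all 13 alternative analyses, without the third old library among them, and its Lam-RNAi level of 21.0 and 20.03 lay below the young one without passing. eIF2B-epsilon had 35.4, 34.4 and 33.9 in old fat bodies, against 42.8 and 41.5 in young fat bodies, and fell by 0.29 (adjusted p = 0.0213), a call lost without the third old library.

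eIF3-S10 had 308, 318 and 295 normalised CPM in old fat bodies, against 463 and 421 in young fat bodies, and fell by 0.53 on the log2 scale (-0.72 to -0.33, adjusted p = 0.00332). eIF3-S9 had 406, 474 and 431 in old fat bodies, against 633 and 622 in young fat bodies, and fell by 0.52 (-0.75 to -0.29, adjusted p = 0.00653). eIF-3p66 had 169, 192 and 178 in old fat bodies, against 228 and 222 in young fat bodies, and fell by 0.32 (adjusted p = 0.0252). The groups of these 3 subunits did not overlap, which adds nothing to their tests, since the share of all genes without such overlap was not counted. eIF-3p40, with 290, 241 and 257 in old fat bodies, against 299 and 305 in young fat bodies, did not pass (-0.20, -0.43 to 0.03, adjusted p = 0.149), nor did eIF3-S8 (-0.19, -0.38 to -0.01, adjusted p = 0.0904).

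eIF-2beta, the eIF2 subunit that binds eIF5 and eIF2B, had 229, 181 and 204 normalised CPM in old fat bodies, against 148 and 146 in young fat bodies, and rose by 0.47 (adjusted p = 0.0174). The helicase eIF-4a had 2188, 1994 and 2050 in old fat bodies, against 1553 and 1590 in young fat bodies, and rose by 0.40 (adjusted p = 0.0119). eIF6 had 42.3, 31.0 and 32.1 in old fat bodies, against 23.0 and 26.1 in young fat bodies, and rose by 0.52 (adjusted p = 0.0398), with the overlap with ytr stated above. eIF4AIII, the exon junction helicase, rose by 0.36 (adjusted p = 0.0403), and eIF5 fell by 0.30 (adjusted p = 0.0445). eIF-4E had 182, 214 and 198 in old fat bodies, against 163 and 169 in young fat bodies, a difference of 0.26 that missed the threshold (0.04 to 0.48, adjusted p = 0.0644).

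Without either young library or without the third old library, the calls of eIF-2beta, eIF-4a, eIF6, eIF4AIII, eIF5, eIF-3p66, eIF2B-epsilon and eIF4E-3 in the fat body did not pass, with the same sign. Without the third old library 3 factors were called in place of 11, and without the first or second young library 2. These were eIF2B-delta and eIF3-S10 throughout, with eIF3-S9 as the third without that old library. In old fat bodies the fat body markers summed to 14158 to 17718 CPM, against 8036 to 8981 CPM in young ones, the oenocyte markers to 26799 to 44178 CPM, against 104745 to 106163 CPM, and the muscle markers to 3491 to 5421 CPM, against 9065 to 9095 CPM. Of the fat body markers 3 rose and 3 did not pass, and of the oenocyte markers 4 fell and 1 did not pass. Of the muscle markers 7 fell, 1 rose and 2 did not pass. The ovary and eggshell markers were at 83.2, 250 and 191 CPM in the 3 old libraries, against 74.1 and 74.4 CPM in young ones. Of the 7 tested 3 rose and none fell. The midgut markers were at 959, 151 and 527 CPM in the 3 old libraries, against 71.4 to 72.3 CPM in young ones, and 4 of 8 rose. The trachea markers summed to 210 to 224 CPM in old fat bodies, against 421 to 429 CPM in young ones, and 4 of 5 fell. The part of these cell types was not tested.

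Among the listed genes around the factors, 3 of the 15 tested initiation factors without the eIF symbol rose in old fat bodies and none fell: bel by 0.40, Adam (eIF3j) by 0.30 and NAT1, a relative of eIF4G, by 0.27. Beside these, 19.1% of all genes rose and 19% fell. Of the regulators CG10990 rose by 0.64 and the growth kinase Tor by 0.27, and crc fell by 0.28. Thor, the fly 4E-BP that blocks eIF4E, had 737, 382 and 536 normalised CPM in old fat bodies, against 374 and 377 in young fat bodies, and did not pass (0.56). Ef1beta rose by 0.85 and eRF1, the release factor, by 0.23, and the elongation factor Ef1alpha48D fell by 0.48. Without the third old library the calls of bel (0.40), Adam (0.31), NAT1 (0.29), Tor (0.27), crc (-0.27) and eRF1 (0.24) were lost. Without either young library these and the call of Ef1alpha48D did not pass, with the same sign. CG10990 and Ef1beta passed in every alternative.

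In the midgut 6 factors rose and none fell with age among 24 tested, that is 25.0% against 53.7% of all genes called in either direction. Rises made 25.0% of the factors and 25% of all genes, and 28.7% of all genes fell. At an unadjusted p below 0.05 the same edgeR test gave no fall among the factors, and DESeq2 called no fall and 4 rises. eIF2B-alpha had 20.7 and 23.3 normalised CPM in old midguts, against 17.1 and 18.0 in young midguts, and rose by 0.33 (0.15 to 0.52, adjusted p = 0.0046). eIF2B-gamma had 28.3 and 29.6 in old midguts, against 23.4 and 24.9 in young midguts, and rose by 0.26 (adjusted p = 0.00783). eIF2B-delta rose by 0.21 (26.7 and 27.2 in old, 22.6 and 24.0 in young), so 3 of the 5 eIF2B subunits rose, with a median of 0.21 over the 5 beside 0.01 over all genes. eIF-1A (0.21), eIF3-S8 (0.21; 323 and 325 in old, 278 and 283 in young) and eIF-2alpha (0.16) were the others. Without the second old library no factor was called, and without the first young library 1.

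Of the 14 regulators 3 rose and 5 fell in old midguts, and of the 15 tested initiation factors without the eIF symbol 4 rose and 1 fell. Beside these, 25% of all genes rose and 28.7% fell. Thor had 188 and 162 normalised CPM in old midguts, against 348 and 260 in young midguts, and fell by 0.80. Beside it the poly-A binding protein inhibitor Paip2 fell by 0.62, and CG10990 (0.66), Tor (0.28) and the initiation factors Int6 (0.38), CG9099 (DENR, 0.31), NAT1 (0.26) and Trip1 (0.23) rose. eEF1delta (0.38) and eRF1 (0.29) rose also. The oenocyte markers summed to 499 to 520 CPM in old midguts, against 2806 to 3553 CPM in young midguts, and the muscle markers to 1386 to 1565 CPM, against 4118 to 4453 CPM. The fat body markers summed to 289 to 292 CPM in old midguts, against 757 to 982 CPM in young midguts, and 5 of 6 fell while 1 rose. The intestinal progenitor markers summed to 43.9 to 51.0 CPM, against 36.1 to 40.5 CPM, and 2 of 6 rose while 2 fell. Of the 7 ovary and eggshell markers tested 6 fell and none rose. The hemocyte markers summed to 154 to 181 CPM in old midguts, against 304 to 363 CPM in young midguts, and all 7 fell. The trachea markers summed to 21.7 to 26.7 CPM in old midguts, against 70.7 to 89.4 CPM in young midguts, and all 5 fell. Their part in these differences was not tested.

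**Figure D4:**
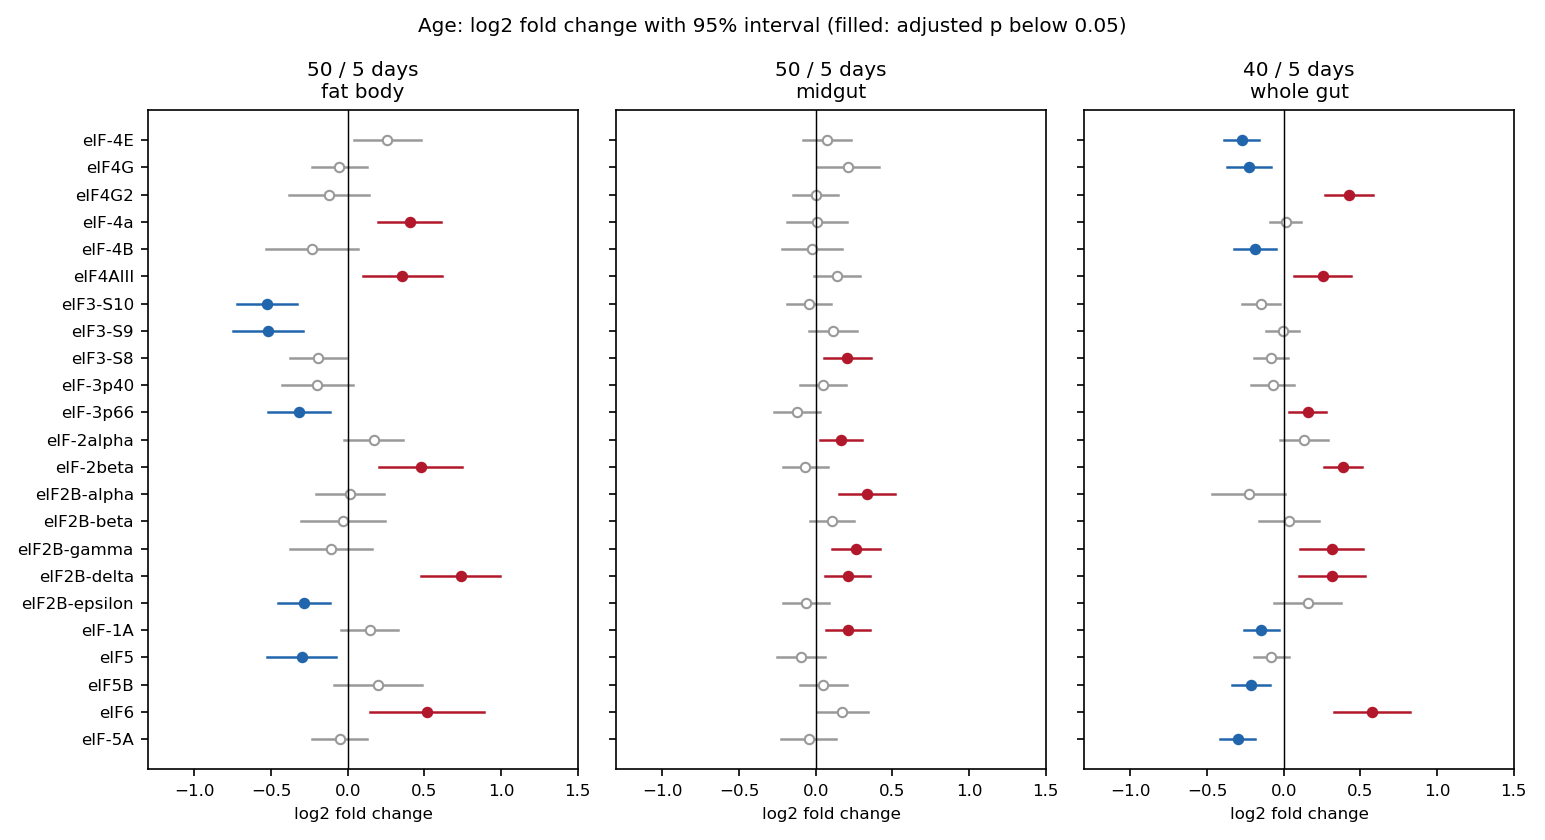
Log2 fold change with its 95% interval (horizontal axis) for each of the 23 factors outside the eIF4E paralogues (vertical axis), for old (50 days) against young (5 days) fat body, the same in midgut, and old (40 days) against young (5 days) whole gut. Filled points passed at an adjusted p below 0.05, red higher and blue lower. eIF2B-delta lies right of 0 in each panel, at 0.74, 0.21 and 0.31.

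The age effect was compared between tissues by the interaction term. It passed for 9 of 26 factors, 3 with a higher and 6 with a lower effect in the fat body, that is 34.6% against 44.3% of all genes, with 11.5% of the factors against 23.8% of all genes higher and 23.1% of the factors against 20.4% of all genes lower. The split was 3 and 3 both under total counts alone and with DESeq2's size factors, which put the median of all genes at 0.09 and 0.15. The lower ones were eIF3-S9 (-0.68, -0.93 to -0.42, adjusted p = 0.000486), eIF3-S10 (-0.53), eIF3-S8 (-0.44), eIF2B-gamma (-0.42), eIF2B-alpha (-0.36) and eIF2B-epsilon (-0.27), and the higher ones eIF-2beta (0.50), eIF2B-delta (0.48) and eIF-4a (0.35). Those of eIF3-S9, eIF3-S8, eIF3-S10, eIF2B-delta and eIF-2beta passed in all 16 alternatives. Without the first young or the second old midgut library 5 factors were called, and without the first young fat body library 6. For Thor the age effect was higher in the fat body by 1.31 (adjusted p = 0.0034).

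In the whole gut, at 40 against 5 days, 7 factors rose and 6 fell among 24 tested, that is 54.2% against 43.6% of all 9773 genes, with 29.2% of the factors against 20.1% of all genes rising and 25.0% of the factors against 23.4% of all genes falling. The direction of the 6 falls here rests on the scaling. Scaled by total counts alone, the median log2 fold change of all genes was 0.52, against 0.02 under TMM, and all 24 factors had positive fold changes and were called. The values below are those under TMM unless stated.

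eIF-2beta had 139 and 141 normalised CPM in old whole guts, against 106 and 108 in young whole guts (0.39, adjusted p = 9.85e-05). eIF2B-gamma (0.31; 28.1 and 29.5 in old, 22.8 and 23.6 in young) and eIF2B-delta (0.31; 24.4 and 25.2 in old, 20.1 and 19.9 in young) were also higher under both scalings, as were eIF6 (0.58; 22.0 and 21.8 in old, 15.6 and 13.7 in young), eIF4G2 (0.43; 79.9 and 86.2 in old, 63.3 and 60.4 in young), eIF4AIII (0.25) and eIF-3p66 (0.16). The span of eIF4G2 is wholly overlapped by CG33111 on the same strand, and the release 6 annotation gives them 8.56% of the exonic bases of eIF4G2 in common.

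eIF-5A had 524 and 505 normalised CPM in old whole guts, against 608 and 658 in young whole guts, a log2 fold change of -0.30 (adjusted p = 0.00047) under TMM and 0.20 under total counts. eIF-4E had 178 and 183 in old whole guts, against 218 and 219 in young whole guts, at -0.28 (adjusted p = 0.00075) under TMM and 0.22 under total counts. eIF4G (-0.23 and 0.27), eIF5B (-0.21 and 0.28), eIF-4B (-0.19 and 0.31) and eIF-1A (-0.14 and 0.35) turned sign in the same way. Paip2 at -0.88 passed as lower under both scalings. The eIF4E-binding protein mxt (CG2950) was at -0.55 under TMM and at -0.05 under total counts, where it did not pass, while Thor (-0.35), Lk6 (-0.41) and larp (-0.40) had positive values under total counts. No eIF3 member fell under either scaling. Without either old library 6 factors were called, and the calls of eIF2B-gamma, eIF2B-delta, eIF4AIII, eIF-3p66, eIF-4B, eIF5B and eIF-1A did not pass.

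The markers of other cells moved here too, by tests under TMM. The oenocyte markers summed to 425 to 428 CPM in old whole guts, against 857 to 864 CPM in young whole guts, and all 5 fell, with a median log2 fold change of -3.27. The midgut markers summed to 37144 to 37461 CPM in old whole guts, against 43163 to 45933 CPM in young whole guts, and 7 of 8 fell while 1 rose. The intestinal progenitor markers summed to 87.9 to 91.7 CPM in old whole guts, against 49.7 to 60.5 CPM in young whole guts, and 2 of 6 rose while 1 fell. The fat body markers summed to 497 to 512 CPM in old whole guts, against 604 to 698 CPM in young whole guts, and 4 of 6 fell. The part of these cell types in the whole gut results was not tested.

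**Figure D5:**
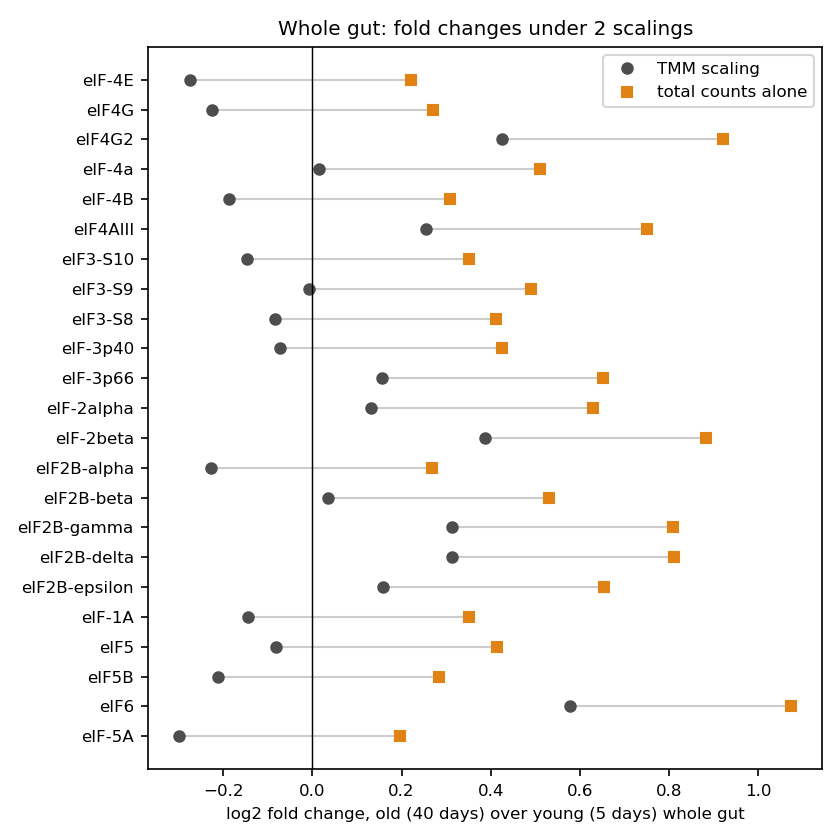
Log2 fold change (horizontal axis) of the 23 factors outside the eIF4E paralogues (vertical axis) in old (40 days) against young (5 days) whole guts under TMM scaling and under scaling by total counts alone. Every factor drawn lies further right under total counts, where the median of all genes is 0.52, than under TMM, where it is 0.02.

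Old and Lam-RNAi libraries were also set against each other within a tissue; they differ in age as well as in lamin interference, which cannot be told apart here. In the fat body 5 factors were higher in old libraries and none lower among 26 tested, that is 19.2% against 14.7% of all genes, with 5.65% of all genes higher and 9.09% lower. At an unadjusted p below 0.05 in edgeR's test, 2 were lower in old fat bodies, eIF5 and eIF-5A, and DESeq2 called 2 lower. Under total counts alone 15 were higher and none lower, with the median of all genes at 0.27. The 5 called were eIF2B-delta (0.98, adjusted p = 0.00346; 42.4, 43.4 and 35.6 in old, 21.0 and 20.03 in Lam-RNAi), eIF-2beta (0.62), eIF2B-epsilon (0.56), eIF-3p40 (0.55) and eIF2B-beta (0.50). eIF3-S9 (-0.04, -0.27 to 0.19), eIF3-S10 (0.07, -0.13 to 0.27) and eIF-3p66 (0.04, -0.16 to 0.24) overlapped between old and Lam-RNAi fat bodies. The listed genes Tango7 (0.54) and CG9769 (0.43) were higher and CG10990 (-0.63) lower in old fat bodies. Without the third old library the calls of Tango7 (0.57) and CG9769 (0.45) were lost. With a replicate block the calls of Tango7, CG9769 and CG10990 were all lost, with the same sign. No factor was called without the second Lam-RNAi library, 1 without the first and 2 without the third old library, while 10 were called without the first or the second old library.

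In the midgut 5 factors were higher and 5 lower in old than in Lam-RNAi libraries among 24 tested, that is 41.7% against 36% of all genes, with 20.8% of the factors in each direction against 17.1% of all genes higher and 18.9% lower. The lower ones included 4 of the 5 eIF3 subunits: eIF-3p40 by 0.42 (adjusted p = 0.000734; 150 and 158 in old, 197 and 214 in Lam-RNAi), eIF3-S9 by 0.26, eIF3-S8 by 0.22 and eIF-3p66 by 0.20, with eIF-4a lower by 0.35. The higher ones were eIF4G (0.35; 779 and 785 in old, 660 and 571 in Lam-RNAi), eIF-4E (0.28; 200 and 215 in old, 175 and 168 in Lam-RNAi), eIF5 (0.24), eIF4AIII (0.23) and eIF2B-delta (0.21). Under total counts alone, 5 factors were called, all of them lower in old, with the median of all genes at -0.10. Without the second old or the second Lam-RNAi library 1 factor was called, eIF-3p40, and without the first old library 4.

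The tissues themselves differed in young flies. In 1 fit of all 17 libraries, 7 factors were higher and 7 lower in young fat bodies than in young midguts among 26 tested, that is 53.8% against 69.3% of all genes, with 26.9% of the factors in each direction against 34.3% of all genes higher and 35% lower. Levels here are on the scale of that fit. eIF3-S8 had 508 and 497 normalised CPM in young fat bodies, against 308 and 310 in young midguts (0.70, adjusted p = 1.27e-06). eIF-3p40 (0.65; 252 and 259 in fat bodies, 166 and 161 in midguts), eIF2B-epsilon (0.60; 36.1 and 35.3 in fat bodies, 23.0 and 24.1 in midguts), eIF3-S10 (0.55) and eIF3-S9 (0.37) were higher too, as were eIF-5A (0.28) and eIF2B-gamma (0.28). The eIF3 and eIF2B-epsilon values passed in all 11 alternatives.

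eIF-4E was lower in young fat bodies, at 137 and 144 normalised CPM, against 210 and 225 in young midguts (-0.63, -0.82 to -0.44, adjusted p = 2.13e-05). eIF-2beta (-0.54; 125 in each fat body, 182 and 181 in midguts), eIF6 (-0.48), eIF4AIII (-0.47), eIF5B (-0.46), eIF2B-delta (-0.32) and eIF-3p66 (-0.31) were lower as well. Under total counts the median of all genes was 0.48, 15 factors were called higher and none lower, and eIF2B-delta (0.14) and eIF-3p66 (0.15) turned sign. Of the listed genes, pix (0.94), Tango7 (0.78), crc (0.65) and the elongation factor Ef1alpha100E (3.42) were higher in young fat bodies, and CG5941 (-1.12) and 4EHP (-0.92) lower.

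The 5 eIF4E paralogues beside eIF-4E were nearly silent. Of these relatives of the cap-binding protein, eIF4E-3 is known in flies for its role in sperm formation. eIF4E-6 had a count in all 17 libraries, 1 to 62 counts, or 0.0355 to 0.873 normalised CPM. eIF4E-3 had 10, 48 and 15 counts in old, 5 and 17 in Lam-RNAi and 1 and 0 in young fat bodies, with the most counts in the second old library. eIF4E-4 had 12, 3 and 7 counts in old, 20 and 22 in Lam-RNAi and 2 and 0 in young fat bodies. Against young ones, edgeR's test called eIF4E-3 in old (adjusted p = 0.0318) and eIF4E-4 in Lam-RNAi fat bodies (adjusted p = 0.0266). These calls are among the 6 rises with age and the 2 with Lam-RNAi counted above. Both genes passed the expression filter there only through old and Lam-RNAi libraries, so the calls are no support for a rise. With a replicate block neither was called. No fold is given for either, since the young libraries stood under 3 counts, the upper limit that a count of 0 allows at 95% from counting error alone. eIF4E-5 and eIF4E-7 had at most 5 counts in any library and were not tested.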

How the data were processed

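The authors deposited 1 table per library of whole-number read counts per gene; per the labels, RNA was extracted with the PicoPure kit, poly-A selected and built into libraries with the TruSeq V2 kit, which does not mark strand. The submitters' processing notes name CASAVA 1.8, TopHat2 and edgeR; the counting tool, the strand setting and the genome build are not given in the sources used here. Coordinates are those of the files, whose chromosome names follow release 5; release 6 annotation served for names and exonic lengths only. Reads of overlapping genes, which touch 11 factors, cannot be told apart.

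Rows at 1 position with identical counts were merged (15080 to 14095). Counts were fitted by edgeR 4.0.16 (R 4.3.3; TMM, default expression filter, robust quasi-likelihood, Benjamini-Hochberg over all genes tested) per tissue series (fat body 10866 genes, 4 residual degrees of freedom; midgut 10220 and 3; whole gut 9773 and 2), and over all 17 libraries (11128 and 9) for contrasts between tissues. The scripts were tested on simulated data. Libraries of a group differed beyond sampling noise (chi-square per gene 7.47 to 319). Counts of 3 correspond to 0.0383 to 0.0948 CPM, an upper limit for a count of 0 at 95% that covers counting error only. Alternatives were DESeq2 1.42.0, its size factors, total-count scaling, other filters and fits, the replicate block and each library left out. Tables and figures used pandas 2.3.3 and matplotlib 3.10.9.

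Members and lists were chosen with earlier results of these data known. Values per library are given for up to 4 called factors per direction with mean log2 CPM of at least 3, for core factors and for the paralogues; from each list, Thor and up to 4 called genes of smallest p are named. The listed eIF3 subunits without the symbol were named beyond this after their values were seen, as were some single factors.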

Additional observations from a re-analysis of the deposited data

Results flagged for a closer look

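The Lam-RNAi effect differed between fat body and midgut, tested as an interaction in 1 edgeR fit of all 17 libraries with Benjamini-Hochberg adjustment, for 13 factors. That is 50.0% of the 26 factors tested, against 46.7% of all genes. The difference in log2 effect, fat body minus midgut, was -1.26 for eIF-3p40, -0.96 for eIF2B-epsilon, -0.90 for eIF3-S9, -0.80 for eIF3-S8, -0.74 for eIF3-S10, -0.67 for eIF2B-gamma, -0.66 for eIF2B-alpha, -0.62 for eIF2B-beta, -0.49 for eIF-3p66, -0.38 for eIF-2alpha and -0.32 for eIF-4a. It was 0.55 for eIF-4E and 0.32 for eIF5, whose call held in 6 of 15 alternatives. Neither eIF-2alpha nor eIF-4a was among the 9 lower calls with DESeq2's size factors. The effects lay on opposite sides of 0 and passed within each tissue for eIF-3p40, eIF3-S9, eIF3-S8 and eIF-4E. With a replicate block only eIF-3p40 still passed in both tissues. The block lost the fat body calls of eIF3-S9, eIF3-S8 and eIF-4E and the midgut call of eIF-4E. Scaled by total counts alone the midgut value of eIF-4E was -0.06.

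The effect of age differed between fat body and midgut, by the same test, for 9 factors. That is 34.6% of the 26 factors tested, against 44.3% of all genes. The difference was -0.68 for eIF3-S9, -0.53 for eIF3-S10, -0.44 for eIF3-S8, -0.42 for eIF2B-gamma, -0.36 for eIF2B-alpha and -0.27 for eIF2B-epsilon, and it was 0.50 for eIF-2beta, 0.48 for eIF2B-delta and 0.35 for eIF-4a. Under total counts alone, or with DESeq2's size factors, the lower calls were those of the 3 eIF3 subunits only.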

How the results depend on the processing

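Of 252 tests of a factor in a comparison, 102 passed, and 34 of these passed in every alternative. Replicate numbers did not pair libraries, as same-numbered libraries had correlated deviations of -0.105 to 0.0176. With a replicate block the calls were 1 (no block: 11) for old against young fat body, 3 (10) for Lam-RNAi against young fat body and 0 (5) for old against Lam-RNAi fat body, and of the eIF3 members 0 and 2 in the first and second of these, where 3 and 5 passed without it. In the other comparisons the block left the count within 1.5 times, and a crossed block for old against Lam-RNAi midgut, chosen after seeing the data, gave 10. Scaling by total counts alone gave 15 calls for old against Lam-RNAi fat body, 5 for old against Lam-RNAi midgut, 24 for the whole gut and 5 of the eIF3 members for Lam-RNAi midgut. With all 17 libraries in the fit the calls were 12 for old against Lam-RNAi fat body, 5 for old against Lam-RNAi midgut, 8 for the whole gut and 5 of the eIF3 members for old against young fat body. With the compared groups alone old against young fat body gave 6, and DESeq2 gave 11 for old against Lam-RNAi fat body. Leaving out 1 library gave 2 to 15 calls for old against young fat body (3 without the third old library), 3 to 4 for Lam-RNAi fat body, 0 to 10 for old against Lam-RNAi fat body, 0 to 8 for old midgut, 7 to 10 for Lam-RNAi midgut, 1 to 9 for old against Lam-RNAi midgut, 6 to 15 for the whole gut, 5 to 11 for the age interaction and 10 to 13 for the Lam-RNAi interaction. Of the eIF3 members it gave 1 to 5 for old and 2 to 3 for Lam-RNAi fat body. No sign turned in these where a factor was called with or without the library left out, while signs of uncalled factors did turn. Total counts alone turned the sign in the whole gut of Thor (0.14), Lk6 (0.083), larp (0.10), eIF-3p40 (0.43), eIF3-S9 (0.49), eIF3-S8 (0.41), eIF3-S10 (0.35), eIF-5A (0.20), eIF-4B (0.31), eIF5B (0.28), eIF-4E (0.22), eIF-1A (0.35), eIF2B-alpha (0.27), eIF4G (0.27) and eIF5 (0.42), and between young tissues of eIF2B-delta (0.14), eIF-4B (0.39), eIF-3p66 (0.15), eIF4G2 (0.31), eIF4G (0.29) and eIF-2alpha (0.34). These turns follow from the shift of all genes under that scaling; the cause of the other changes was not tested. Groups of 2 or 3 libraries limit each test, and the eIF4E paralogues are limited by depth.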
